A study of Mus musculus with 35 samples.

Results

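The 44 genes described here encode the contractile apparatus and the fuel supply of skeletal muscle fibres, and were read in biopsies of mouse skin wounds. The rule that chose them goes by gene name and uses no measured value, although they were chosen with earlier results of these data known. All 44 were present among the 22830 gene symbols of both deposited count tables. By role they comprised 14 thick filament, 8 thin filament, 9 Z disc and elastic filament, 7 calcium handling, 4 energy and 2 regulator genes. By fibre type 12 are typical of fast fibres, 6 of slow fibres, 4 of developing muscle and 22 are shared between fibre types.

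RNA was sequenced from 35 wounds in 8 groups. All animals were C57BL/6 mice with Col5a1 fl/fl, male and female, aged 8 to 12 weeks. Those called Col5a1CKO also carried Col1a2CreERT, a tamoxifen-inducible Cre recombinase under an enhancer of the collagen gene Col1a2, which is active mainly in fibroblasts, whereas the WT animals were littermates without Cre. Both genotypes received tamoxifen around the time of wounding, and each library came from a 6 mm punch of whole tissue from the middle of a full-thickness dorsal wound. In the first experiment there were 7 WT and 7 Col5a1CKO wounds at day 14, 3 Col5a1CKO wounds at day 14 into which cultured WT fibroblasts had been injected, and 3 WT and 3 Col5a1CKO wounds at day 19. In the second there were 4 WT and 4 Col5a1CKO wounds from animals given vehicle and 4 Col5a1CKO wounds from animals given cilengitide, an inhibitor of integrin receptors, all at day 14. Per the study's methods, mice not receiving fibroblasts were injected with PBS, a vehicle that the labels of the first experiment do not name. The methods describe replicates as biologically separate, whereas the labels tie no wound to an animal, and p-values measure the spread between these wounds.

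Depth was 15043531 to 35700337 counts per wound in the first experiment and 51211600 to 68266760 in the second. Within the first experiment, 9 of the 17 day 14 libraries (WT a to d and Col5a1CKO a to e) stood apart from the other 14 libraries in their balance of GC-rich to GC-poor genes, by a gap of 1.541 on the log2 scale where the next largest gap was 0.395. These are called the first library set. Col5a1, the targeted gene, had a median level of 846 CPM (counts as a share of the library, scaled to a fixed total) in WT and 368 in Col5a1CKO wounds at day 14, 2575 and 874 at day 19, and 1512 and 587 with vehicle, and the ranges of both genotypes overlapped in each case. The treatment field of the 3 Col5a1CKO wounds at day 19 names WT fibroblasts, whereas their titles do not, and the titles were followed.

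Under the skin of the mouse lies the panniculus carnosus, a thin sheet of striated muscle that a full-thickness wound removes together with the dermis. A striated muscle contracts when myosin of the thick filament pulls on actin of the thin filament. Troponin and calcium switch this on, and Z discs anchor the filaments. Fast fibres express Myh1, Myh2 or Myh4 and the fast troponins, slow fibres express Myh7 and the slow troponins, and embryonic and neonatal myosins (Myh3 and Myh8) are made by developing muscle and again by regenerating fibres. In a biopsy of mixed tissue, fewer muscle fibres and less RNA per fibre cannot be told apart.

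The promoters of 6 members are shown because the results turn on these genes: Ckm and Mylpf stand for the fast fibre program, and Tnni1, Tnnt1, Tnnc1 and Myh3 were the members that passed a test. Each runs 5′ to 3′ from 250 bases before to 50 bases after a RefSeq transcription start (table build GRCm38.p6), and each was found exactly once, and identical, in NCBI37/mm9, from which the coordinates are given. Capitals mark every E-box (CANNTG), the letters bound by MyoD and myogenin, which read the same on both strands. The promoters lie at chr7:19996193-19996492 on the plus strand for Ckm, chr7:134354872-134355171 (plus) for Mylpf, chr11:66891552-66891851 (plus) for Myh3, chr1:137695748-137696047 (plus) for Tnni1, chr7:4467528-4467827 (minus) for Tnnt1 and chr14:32021248-32021547 (plus) for Tnnc1.
Ckm: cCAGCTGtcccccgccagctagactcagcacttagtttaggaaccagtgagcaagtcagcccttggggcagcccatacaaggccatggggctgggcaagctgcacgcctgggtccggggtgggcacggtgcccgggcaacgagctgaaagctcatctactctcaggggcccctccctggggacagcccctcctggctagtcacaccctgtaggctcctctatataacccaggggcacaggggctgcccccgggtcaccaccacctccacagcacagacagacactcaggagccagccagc
Mylpf: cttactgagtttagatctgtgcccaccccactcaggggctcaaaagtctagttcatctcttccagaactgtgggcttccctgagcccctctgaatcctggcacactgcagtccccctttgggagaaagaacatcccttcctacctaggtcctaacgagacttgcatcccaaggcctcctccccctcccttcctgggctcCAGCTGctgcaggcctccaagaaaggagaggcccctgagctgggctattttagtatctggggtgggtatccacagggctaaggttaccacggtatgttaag
Myh3: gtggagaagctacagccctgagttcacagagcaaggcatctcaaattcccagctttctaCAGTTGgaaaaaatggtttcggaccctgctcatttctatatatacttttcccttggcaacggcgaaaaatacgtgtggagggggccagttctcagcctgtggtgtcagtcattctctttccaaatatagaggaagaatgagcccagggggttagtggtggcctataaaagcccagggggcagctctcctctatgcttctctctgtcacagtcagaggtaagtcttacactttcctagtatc
Tnni1: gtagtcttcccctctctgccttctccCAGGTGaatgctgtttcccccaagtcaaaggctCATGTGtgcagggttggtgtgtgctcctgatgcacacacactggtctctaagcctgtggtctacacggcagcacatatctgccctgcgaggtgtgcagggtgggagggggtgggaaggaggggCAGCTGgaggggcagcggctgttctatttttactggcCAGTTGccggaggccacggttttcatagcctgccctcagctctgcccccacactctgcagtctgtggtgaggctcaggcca
Tnnt1: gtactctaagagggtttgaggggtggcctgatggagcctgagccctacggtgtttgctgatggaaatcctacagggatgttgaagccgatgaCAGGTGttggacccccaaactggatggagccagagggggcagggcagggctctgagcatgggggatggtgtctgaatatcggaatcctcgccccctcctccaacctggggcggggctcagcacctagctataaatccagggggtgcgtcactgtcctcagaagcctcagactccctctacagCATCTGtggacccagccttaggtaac
Tnnc1: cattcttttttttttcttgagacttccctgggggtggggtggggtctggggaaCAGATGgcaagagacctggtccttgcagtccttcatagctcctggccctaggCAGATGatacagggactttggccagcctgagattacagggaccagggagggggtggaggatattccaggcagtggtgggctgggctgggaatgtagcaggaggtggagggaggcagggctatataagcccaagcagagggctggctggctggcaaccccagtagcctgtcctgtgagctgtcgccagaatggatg

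Tnni1 held 4 E-boxes, Tnnt1 and Tnnc1 2 each, and Ckm, Mylpf and Myh3 1 each. Promoters of the same length were available for 33 of the 44 members. CANNTG occurred in 28 of these 33 (84.8%) and in 72.1% of all 27025 promoters. The narrower CAGCTG, which every CANNTG count includes, occurred in 14 of 33 (42.4%) against 16.1% of all promoters. Among the 6 shown it lay in Ckm, Mylpf and Tnni1, and not in Myh3, Tnnt1 or Tnnc1. TATAAA on either strand was found in 8 of 33 (24.2%) against 14.2%. A match of letters is a description of the sequence and no measure of binding.

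The summed level of the 44 genes varied widely between wounds of one group. In WT wounds at day 14 it ranged from 55.9 to 19033 CPM with a median of 85.5, and 5 of the 7 wounds lay below 100 CPM. In Col5a1CKO wounds at day 14 it ranged from 184 to 35984 CPM with a median of 4234. The 3 Col5a1CKO wounds with WT fibroblasts had 49371, 664 and 749 CPM (a, b and c). At day 19 the WT wounds had 7396, 765 and 1130 CPM and the Col5a1CKO wounds 1495, 6969 and 74774 CPM. In the cilengitide experiment the WT vehicle wounds had 3421, 101, 7207 and 1995 CPM, the Col5a1CKO vehicle wounds 3140, 256, 64.8 and 72.6 CPM, and the cilengitide wounds 1520, 144, 1501 and 456 CPM.

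The ranges of any pair of groups from the same experiment overlapped. The highest wound of a group exceeded the lowest 341-fold in WT and 195-fold in Col5a1CKO at day 14, 74.4-fold with WT fibroblasts, 9.66-fold and 50-fold in WT and Col5a1CKO at day 19, 71.0-fold and 48.5-fold with vehicle and 10.6-fold with cilengitide. As a share of all counts, the 44 genes took 0.00499% in the lowest wound (WT day 14 f) and 7.35% in the highest (Col5a1CKO day 19 c). The number of members at 1 CPM or more ran from 12 in Col5a1CKO vehicle wound 3 to all 44 in Col5a1CKO day 14 wound e and day 19 wounds b and c.

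**Figure D1:**
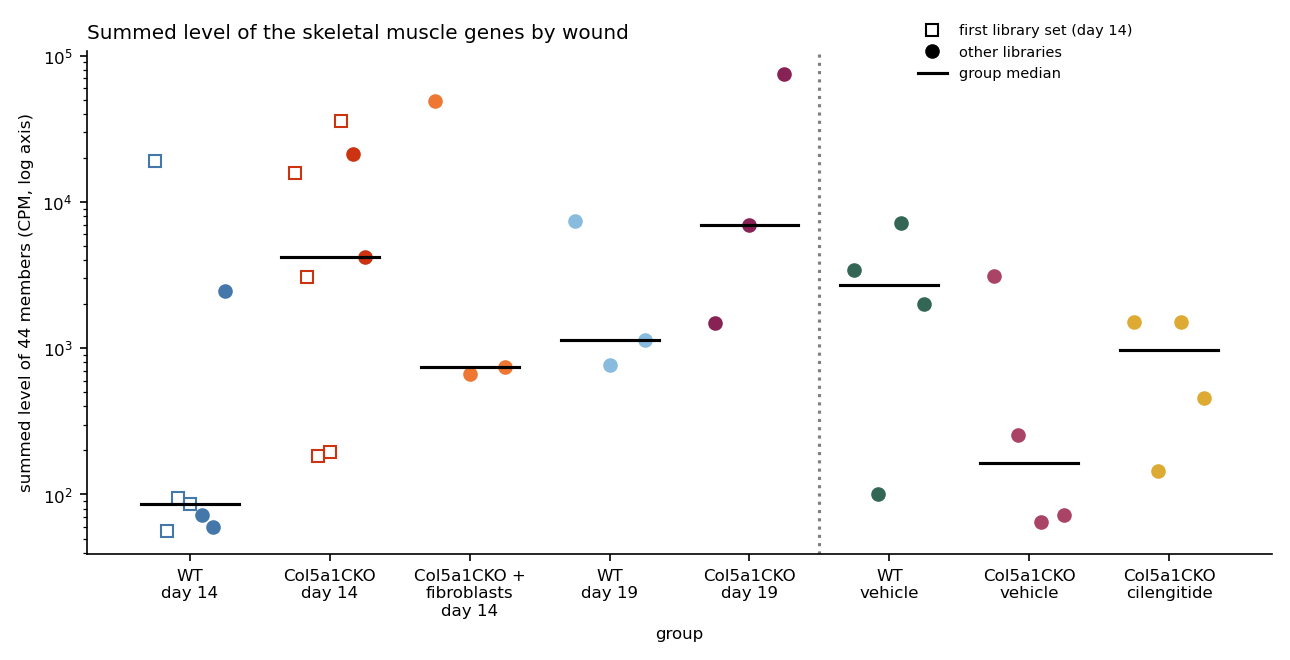
Summed level of the 44 skeletal muscle genes (CPM, log axis) in each of 35 wounds by group. Symbols are wounds (open squares, first library set), bars are group medians, and the dotted line separates the 2 experiments, which were normalized separately. WT day 14 wounds lie near 100 CPM except a (19033) and g (2480), and the highest wound of each group exceeds the lowest at least 9.66-fold.

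Among thick filament genes, Mylpf, the fast regulatory light chain, had the highest length-scaled level in the first experiment (mean of 663 CPM per kb of transcript), followed by Myl1, the fast essential light chain (195). Mylpf had 2.2 to 2590 CPM (median 7.83) in WT and 10.5 to 1828 (median 218) in Col5a1CKO wounds at day 14, 1856, 33.6 and 33.4 with WT fibroblasts, 234, 37.1 and 33.6 in WT at day 19, and 48.3, 181 and 1972 in Col5a1CKO at day 19. Over the 12 wounds of the cilengitide experiment it ranged from 1.9 to 420 CPM. Myl1 followed it, with 0.37 to 735 CPM (median 0.894) in WT and 2.93 to 803 (median 81.2) in Col5a1CKO wounds at day 14, 787, 19.1 and 15.3 with WT fibroblasts, 116, 22.1 and 14.2 in WT and 24.4, 79.7 and 769 in Col5a1CKO wounds at day 19. Both genes were high in the same wounds, a in WT, a, e and f in Col5a1CKO at day 14, a with WT fibroblasts and c in Col5a1CKO at day 19, and their groups overlapped throughout.

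Among thin filament genes, Acta1, skeletal muscle actin, led with a mean of 911 CPM per kb, followed by Tnnt3, fast troponin T (681). Acta1 had 2.46 to 1639 CPM (median 3.42) in WT and 13.5 to 2544 (median 639) in Col5a1CKO wounds at day 14, 6843, 155 and 118 with WT fibroblasts, 1119, 126 and 191 in WT at day 19, and 231, 944 and 11180 in Col5a1CKO at day 19. The WT vehicle wounds had 453, 7.79, 893 and 246 CPM of Acta1, the Col5a1CKO vehicle wounds 213, 30.5, 5.9 and 19.3, and the cilengitide wounds 133, 38.3, 157 and 58.2. With 11180 CPM in Col5a1CKO day 19 wound c, Acta1 was the most abundant member in any wound. Tnnt3 reached 3759 CPM in Col5a1CKO day 14 wound e and was at 1.48 to 3.51 CPM in the 5 WT wounds b to f of the same day.

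In the Z disc group, Actn3, the fast fibre alpha-actinin, had a mean of 121 CPM per kb and Des, the intermediate filament that ties Z discs together, 111. Actn3 ranged from 0.138 to 390 CPM (median 1.21) in WT and from 2.89 to 1286 (median 149) in Col5a1CKO wounds at day 14, and had 2906, 12.7 and 16.6 with WT fibroblasts, 162, 14.6 and 17.2 in WT and 30.2, 95.8 and 1215 in Col5a1CKO at day 19. Des varied less, from 1.38 to 205 CPM (median 14.7) in WT and from 14.1 to 684 (median 107) in Col5a1CKO wounds at day 14, and was 55.6 and 60.6 in wounds b and c with WT fibroblasts, where Actn3 was 12.7 and 16.6. Des is also a gene of vascular smooth muscle.

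Calcium handling was led by Atp2a1, the calcium pump of the fast fibre reticulum (mean of 355 CPM per kb), and Pvalb, the calcium buffer parvalbumin (268). Atp2a1 had 2.74 to 1245 CPM (median 4.54) in WT and 6.09 to 3674 (median 512) in Col5a1CKO wounds at day 14, 7620, 21.1 and 63.0 with WT fibroblasts, 852, 49.8 and 96.8 in WT and 117, 608 and 7962 in Col5a1CKO at day 19. Pvalb was 1254 CPM in the WT fibroblast wound a and 2.56 in wound b, and 686 in Col5a1CKO day 19 wound c and 12.4 in wound a. Energy genes were led by Ckm, muscle creatine kinase (mean of 423 CPM per kb), and Eno3, muscle enolase (139). Ckm had 1.1 to 977 CPM (median 2.66) in WT and 4.53 to 1899 (median 318) in Col5a1CKO wounds at day 14, 3884, 10.7 and 33.7 with WT fibroblasts, 441, 34.0 and 46.0 in WT and 43.7, 236 and 3265 in Col5a1CKO at day 19. Eno3 did not go below 4.34 CPM in WT wounds c to f, where Ckm was at 1.75 to 2.99. In WT wound b Eno3 was lower, at 0.825 CPM with Ckm at 1.1.

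The regulators were sparse. Myog, which encodes myogenin, ranged from 0.0 to 5.02 CPM in WT and from 0.0 to 5.35 in Col5a1CKO wounds at day 14, and had 1.02, 2.34 and 0.353 CPM with WT fibroblasts, 1.59, 0.999 and 0.541 in WT at day 19 and 1.27, 4.5 and 6.54 in Col5a1CKO at day 19. Myod1, which encodes MyoD, had no count in 8 of the 23 wounds and a highest level of 4.5 CPM, in Col5a1CKO day 19 wound c. It was at 0.0 to 0.0412 CPM in WT wounds at day 14 and at 1.06, 0.269 and 0.147 CPM in those at day 19.

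**Figure D2:**
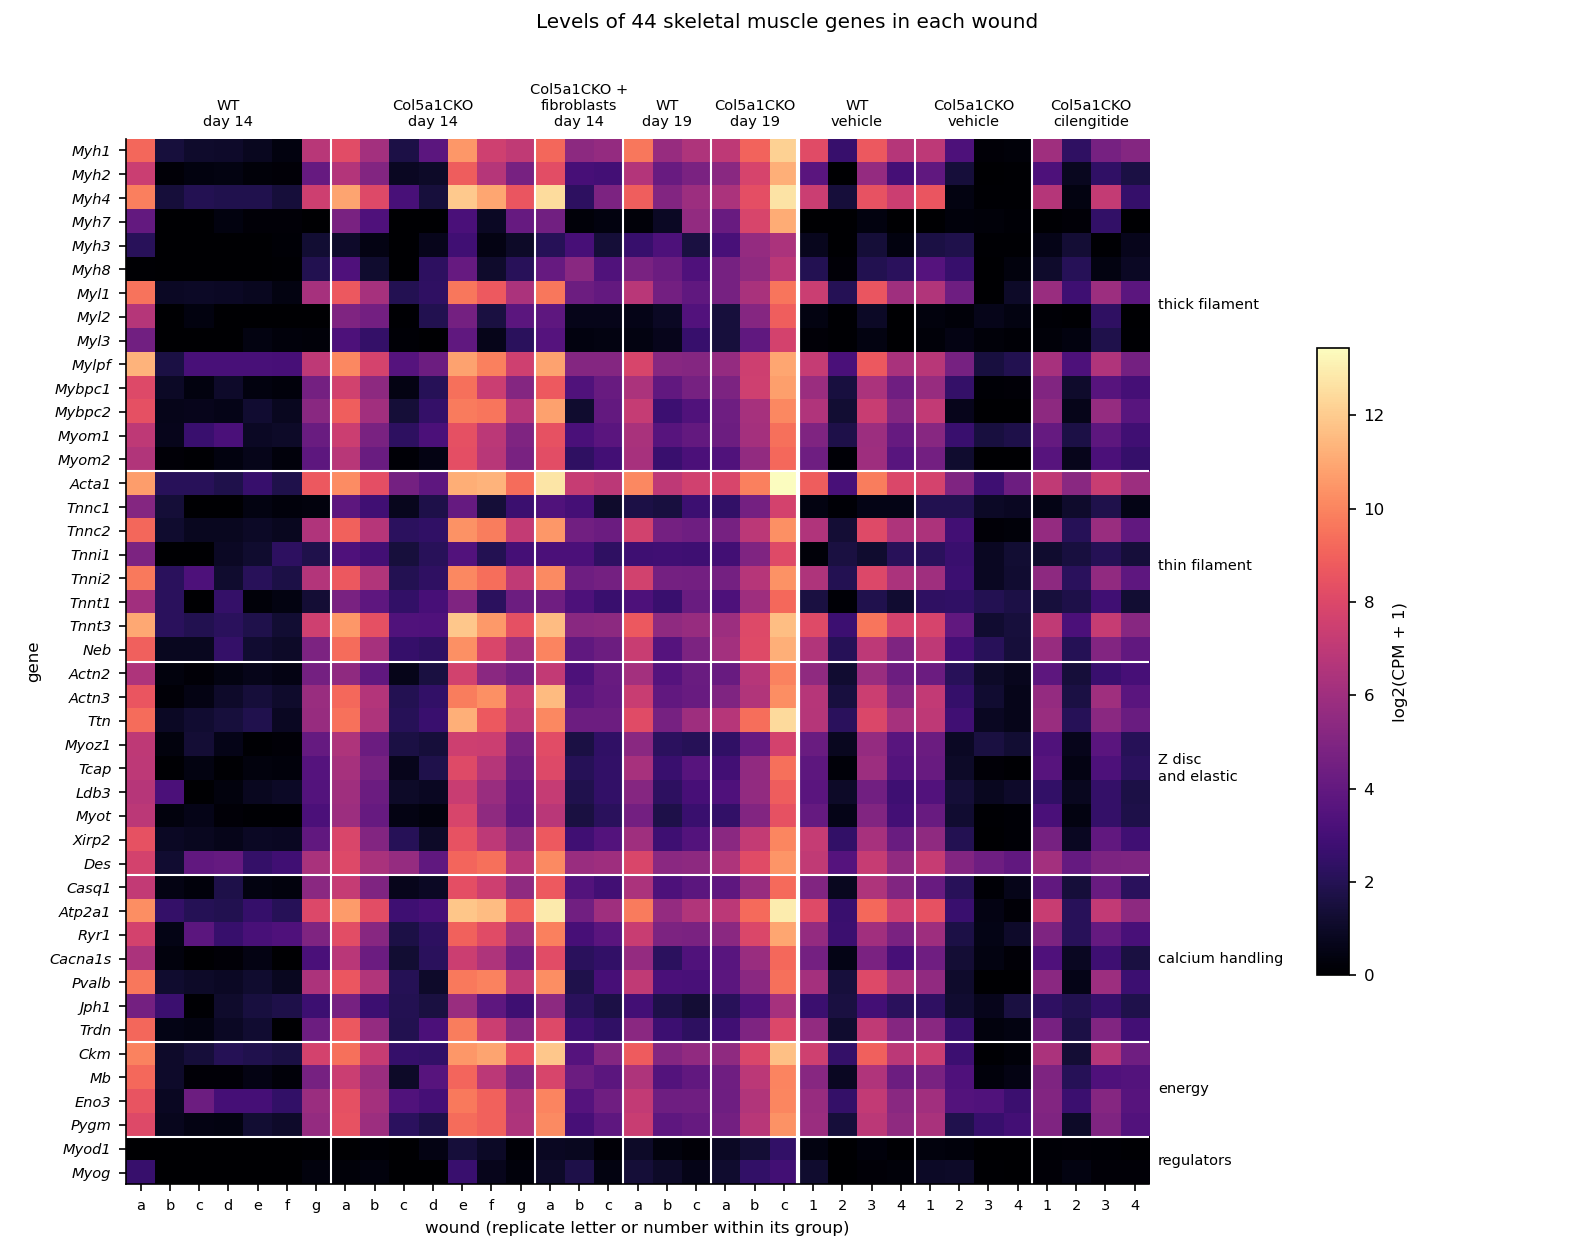
Levels of the 44 genes (rows, grouped by role) in 35 wounds (columns, grouped by group) as log2(CPM + 1). Most rows share the same bright and dark wounds, such as Col5a1CKO day 19 wound c and WT day 14 wounds b to f, whereas Myh7, Myl2, Myl3, Tnnc1, Tnni1 and Tnnt1 are brightest in Col5a1CKO day 19 wound c and reach at most 6.23 CPM in the cilengitide experiment.

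Most members were high and low in the same wounds. Across the 23 wounds of the first experiment, Spearman's rho between each gene and the sum of the other 43 had a median of 0.97, and 33 of 44 genes reached 0.9. In the 12 wounds of the cilengitide experiment the median was 0.96 and 30 of 44 reached 0.9. These correlations share libraries and group differences and are given as a description. Of the 44 genes, 34 were highest in Col5a1CKO day 19 wound c within the first experiment and 30 in WT vehicle wound 3 within the second. All 6 slow and 4 developmental genes stayed below 0.9 in both experiments, as did Jph1 (0.85 and 0.87), and Myoz1 (0.85), Des (0.87) and Pygm (0.87) did in the second. Tnnc1, slow troponin C, had a rho of 0.74 in the first and -0.16 in the second experiment, Tnni1, slow troponin I, 0.74 and -0.01, Tnnt1, slow troponin T, 0.76 and 0.02, Myh7, the slow myosin, 0.69 and -0.15, and Myh8 0.57 and 0.59.

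Among 13750 other genes, the 10 that followed the summed level most closely had a mean rho of 0.97 to 0.98 over both experiments. They included Eef1a2, Kbtbd10, Jsrp1, Art1, Mypn, Nrap, Smyd1, Sypl2 and Cacng1. Eef1a2, an elongation factor of muscle and nerve, ranged from 0.0 to 487 CPM in the first experiment and from 0.388 to 39.4 in the second. Nrap, which encodes a protein of developing myofibrils, ranged from 0.0 to 1015 and from 0.0431 to 47.8 CPM.

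The first question of the study was what the loss of Col5a1 in fibroblasts changes in the wound. Each comparison was fitted over all genes by edgeR's quasi-likelihood test, and calls required both an adjusted p (Benjamini-Hochberg) under 0.05 and a change of 2-fold or more. At day 14, 0 of the 40 members tested were called between Col5a1CKO and WT wounds, against 8.28% of all 14367 genes tested. In edgeR 2 members (Myh8 and Des) had an unadjusted p under 0.05, both higher, against 10.1% of all genes in that direction, and DESeq2 called 1 member, Myod1, higher, against 8.24%. The members' log2 fold changes had a median of 1.78, 39 of 40 were positive against 48.2% of all genes, and the median over all genes was -0.03. Myh8, neonatal myosin, had the smallest adjusted p (log2 fold change 3.57 ± 1.49 SE, edgeR adjusted p = 0.136, n = 7 and 7), followed by Des (2.41 ± 1.08, edgeR adjusted p = 0.165).

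The size of the difference depended on 1 WT wound. Without WT wound a, which had 19033 CPM of muscle RNA, the median was 4.57 and 10 members were called higher in Col5a1CKO wounds (Cacna1s, Des, Myl2, Mylpf, Myom1, Neb, Tnnc1, Trdn, Ttn and Xirp2), against 6.34% of all genes. The direction was the same within both library sets, with a median of 1.2 in the first and 3.80 in the other, and each set gave 1 call, both higher (Myh8 in the first, against 3.68% of all genes, and Tnnc1 in the other, against 8.82%). The other set holds only wounds f and g of the Col5a1CKO group and e to g of the WT group at day 14. Fast genes had a median of 1.79 and the 4 slow genes tested 0.18.

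At day 19, 0 of 44 members were called between Col5a1CKO and WT wounds, against 0.0198% of all 15135 genes (3 genes). All 44 log2 fold changes were positive, with a median of 3.03 and a range of 1.87 to 5.68, where the median of all genes was -0.01 and 49.4% of all genes were positive. At an unadjusted p under 0.05, 11 members were higher, against 5.38% of all genes, and DESeq2 called 18 higher, against 3.73%. The 6 slow genes had a median of 4.91 and the 12 fast genes a median of 2.80, and single genes of both types overlapped in size. Myh3, embryonic myosin, had the smallest adjusted p (3.22 ± 0.93 SE, edgeR adjusted p = 0.142, n = 3 and 3), and Tnnc1 came next (4.60 ± 1.48, edgeR adjusted p = 0.158). In 1 member, Tnni1, the groups did not overlap, against 16.4% of all genes for that direction: the WT wounds had 5.98, 6.18 and 6.0 CPM and the Col5a1CKO wounds 6.55, 30.0 and 273. Without Col5a1CKO wound c the median of the members was 0.79, and without WT wound a it was 4.74.

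The change of the genotype difference from day 14 to day 19 was tested as an interaction. In edgeR 0 of 44 members passed, as did 0 of all 15954 genes, and 0 members passed by DESeq2. At an unadjusted p under 0.05 in edgeR there was 1 of the 44 members, against 939 of the 15954 genes. Tnni1 had the smallest p (log2 difference of 4.02 ± 1.91 SE, edgeR adjusted p = 0.848).

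Between the days within a genotype, Col5a1CKO wounds gave the only calls of the first experiment. The slow troponin genes Tnni1 and Tnnt1 and the embryonic myosin Myh3 were higher at day 19 than at day 14. The other 4 slow genes did not pass the test, and the fast genes had a median log2 fold change of 0.26. Tnni1 was at 1.8 to 9.79 CPM (median 6.42) at day 14 and at 6.55, 30.0 and 273 at day 19. The log2 fold change was 4.14 ± 0.88 SE (edgeR adjusted p = 0.0278, n = 3 and 7), with the lowest day 19 wound inside the day 14 range. Myh3 was at 0.0 to 6.35 CPM (median 0.648) at day 14 and at 7.82, 49.5 and 81.8 at day 19, so that the groups did not overlap (4.99 ± 1.16, edgeR adjusted p = 0.0360). Tnnt1 was at 3.64 to 29.7 CPM (median 13.5) at day 14 and at 8.88, 62.1 and 597 at day 19 (3.89 ± 1.01, edgeR adjusted p = 0.0462).

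These 3 of 44 members were called higher, against 1.87% of all 15327 genes, and 0 were called lower, against 3.85% (5.72% in either direction). At an unadjusted p under 0.05, 8 members were higher (4.24% of all genes), and DESeq2 called 7 higher (2.68%). The groups did not overlap in 2 members, Myh3 and Myh8, against 7.74% of all genes. All 6 slow genes had positive log2 fold changes (median 3.94), as had all 4 developmental genes (median 2.94), and Myh7 had the largest (6.54 ± 1.80 SE, edgeR adjusted p = 0.0537). The median over all 44 was 1.47 with 42 positive, where the median over all genes was -0.12 and 43.2% were positive. No member was called on leaving out any 1 of the 3 Col5a1CKO day 19 wounds. Of all genes, 0.0% were then called higher without wound a or b and 0.0767% without wound c. None was called without Col5a1CKO day 14 wound a or b, against 0.928% and 1.15% of all genes called higher. Leaving out day 14 wound c gave 1 (Myh3, against 0.978% of all genes) and wound d 1 (Tnni1, against 1.48%). Without day 19 wound c the median of the members was -0.95. All day 19 libraries belong to the other library set, where 2 Col5a1CKO day 14 wounds remain. Within that set 0 members were called, against 0.0% of all genes, with a median of 2.03.

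**Figure D3:**
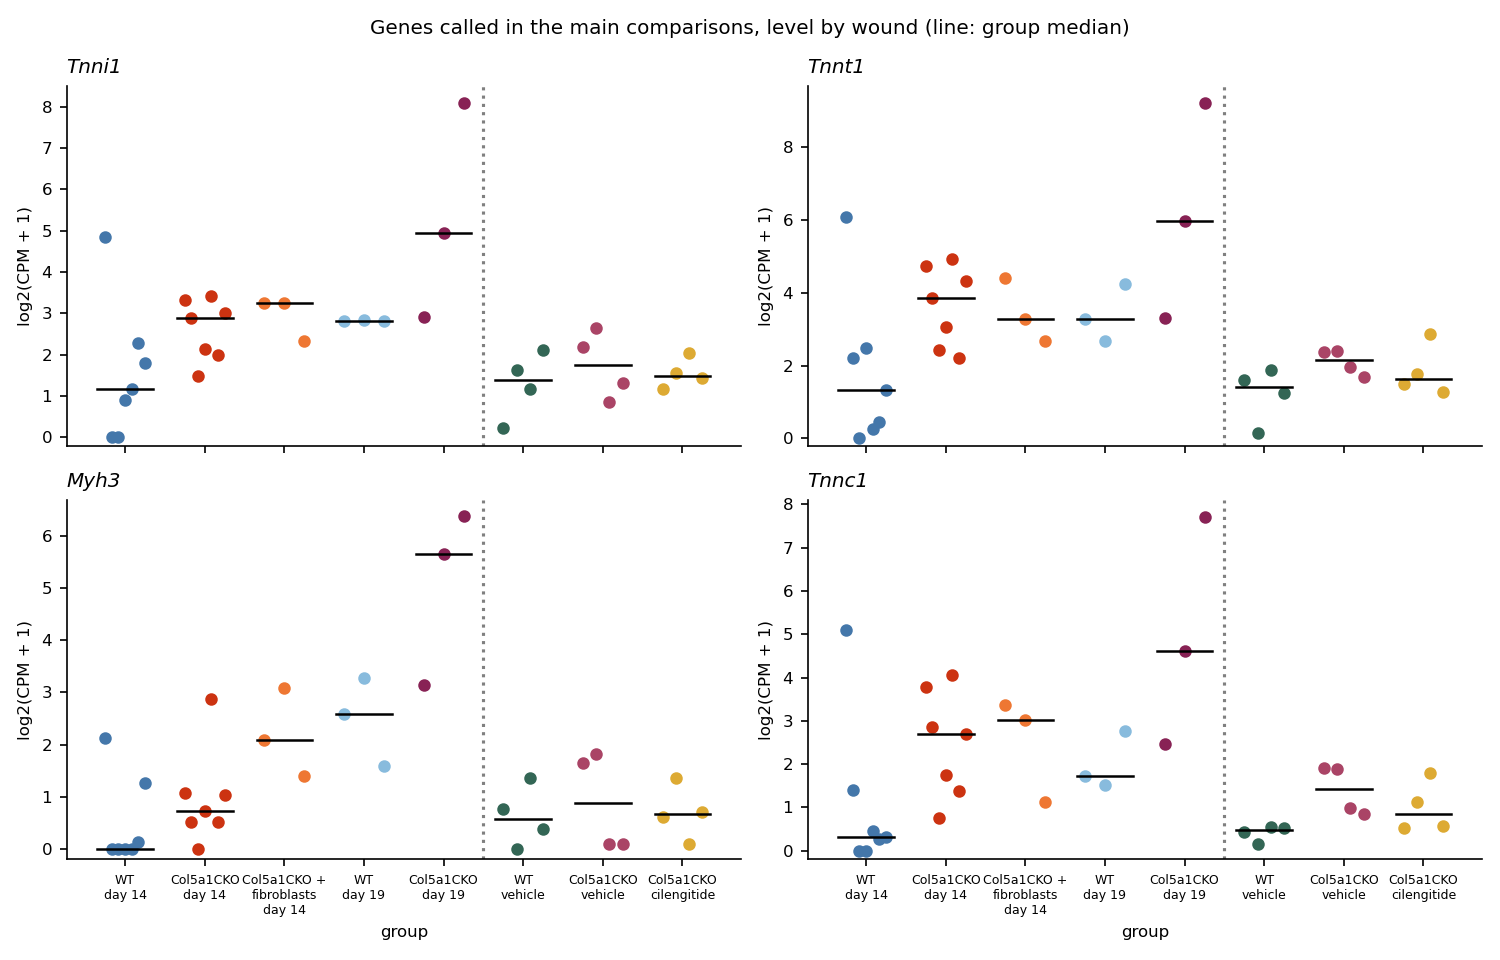
Levels of the 4 members called in a comparison, as log2(CPM + 1), by wound and group. Points are wounds, bars are group medians, and the dotted line separates the 2 experiments. Tnni1, Tnnt1 and Myh3 are highest in Col5a1CKO day 19 wound c, and Tnnc1 is higher in all 4 Col5a1CKO vehicle wounds than in the 4 WT vehicle wounds.

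In WT wounds, 0 of 43 members were called between day 19 and day 14, against 5.74% of all 15180 genes, with 1 member higher at an unadjusted p under 0.05 (6.93% of all genes) and 5 called higher by DESeq2 (3.93%). The median log2 fold change was 0.03, with 23 positive and 20 negative, where 50.1% of all genes were positive. Myh8 had the smallest adjusted p: it was at 0.0 to 2.76 CPM in the 7 day 14 wounds and at 26.3, 18.6 and 9.0 at day 19, without overlap (5.48 ± 1.58 SE, edgeR adjusted p = 0.0633, n = 3 and 7). Myh3 came next (2.89 ± 1.69, edgeR adjusted p = 0.336). Non-overlap in the higher direction was found in 2 members, Myh8 and Myod1, against 7.55% of all genes tested. Myod1 was too sparse to be tested by edgeR, so that this share does not cover it. WT day 14 wound a weighs on this comparison too, and without it the median was 2.84, whereas without WT day 19 wound a it was -1.34. Within the other library set, with 3 wounds a day, the median was 2.15 and 5 members were called higher (Myl2, Myog, Tnnc1, Tnni1 and Tnnt1), against 14.2% of all genes.

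The question of the fibroblast experiment was whether WT fibroblasts change the Col5a1CKO wound. At day 14, between the 3 Col5a1CKO wounds given WT fibroblasts and the 7 that were not, 0 of 44 members were called, against 0.0% of all 15659 genes, with 0 at an unadjusted p under 0.05 and 0 by DESeq2. The median log2 fold change was 0.26, with 31 of 44 positive against 47.4% of all genes. Myh8 (2.07 ± 1.13 SE, edgeR adjusted p = 0.438, n = 3 and 7) and Myh3 (1.51 ± 1.10, edgeR adjusted p = 0.530) had the smallest adjusted p. With fibroblasts Myh8 was at 16.7, 37.9 and 9.63 CPM, and without at 0.0 to 16.7. The treated wounds consisted of 1 wound rich in muscle RNA (a) and 2 with little, and without wound a the median was -3.93. All treated libraries belong to the other library set, whereas untreated wounds a to e belong to the first, so that treatment and library set are partly mixed. Within the other set, with untreated wounds f and g only, 0 members were called, against 0.0% of all 15559 genes. Against WT wounds, which comparison shares the treated wounds, 0 of 42 members were called, against 5.84% of all 15316 genes, with 2 at an unadjusted p under 0.05 (both higher, against 9.16% of all genes) and 2 called higher by DESeq2 (Myh8 and Myod1, against 5.03%). The median was 2.06 with 41 of 42 positive against 51.2% of all genes, and it was -2.12 without treated wound a and 5.05 without WT wound a. Myh8 (5.76 ± 1.57 SE, edgeR adjusted p = 0.0539, n = 3 and 7) and Des (3.26 ± 1.33, edgeR adjusted p = 0.176) led. Myh8 and Myod1 did not overlap, 2 members against 10% of all genes tested by edgeR, among which Myod1 was not. Within the other library set, with 3 wounds a group, 4 members were called higher (Myog, Tnnc1, Tnni1 and Tnnt1), against 19.8% of all genes, with a median of 4.23.

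In the cilengitide experiment the direction was the opposite of that at day 14 in the first, and this difference between the experiments was not tested. Between Col5a1CKO and WT vehicle wounds, 36 of the 42 members tested had negative log2 fold changes, with a median of -1.58, where the median over all genes was 0.02 and 51.2% of them were positive. With edgeR 0 were called lower, against 13.4% of all 15434 genes, with 0 lower at an unadjusted p under 0.05 and 0 by DESeq2. In the other direction 1 member, Tnnc1, was called higher, against 17.5% of all genes (30.9% in either direction, and 19.8% higher at an unadjusted p under 0.05), and its groups did not overlap, against 23.4%. Tnnc1 had 2.76, 2.71, 0.969 and 0.811 CPM in Col5a1CKO and 0.345, 0.107, 0.455 and 0.446 in WT vehicle wounds (log2 fold change 2.41 ± 0.62 SE, edgeR adjusted p = 0.0148, n = 4 and 4). The call was kept in each of 8 alternatives and on leaving out each of the 8 wounds. The annotation (NCBIM37) holds a second, longer Tnnc1 record, from 31983021 to 32024915 on chromosome 14, over the one from 32021498 to 32024915, and reads of overlapping genes could not be told apart here.

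Jph1, a protein of the junction between membrane and reticulum, had the next smallest adjusted p (-1.17 ± 0.59 SE, edgeR adjusted p = 0.135). The 12 fast genes were all negative (median -2.29), whereas 3 of the 4 slow genes tested were positive (median 0.90). Col5a1CKO vehicle wound 1 held 3140 CPM of muscle RNA and the other 3 wounds at most 256. Without it 15 members were called lower (Acta1, Actn2, Actn3, Atp2a1, Jph1, Ldb3, Mybpc2, Myh4, Myoz1, Neb, Pvalb, Ryr1, Tnni2, Tnnt3 and Ttn), against 12.7% of all genes, with a median of -4.41. In wounds 3 and 4 the fast troponin C gene Tnnc2 was at 0.151 and 0.175 CPM, below Tnnc1, and Des was at 19.9 and 14.4 CPM where Myh4 was at 0.0646 and 0.0658.

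With cilengitide, 0 of 41 members were called against Col5a1CKO vehicle wounds, where 13.1% of all 15563 genes were called, with 0 at an unadjusted p under 0.05 and 0 by DESeq2. The median log2 fold change was -0.05, with 19 of 41 positive against 45.7% of all genes. Myl3, slow light chain (1.79 ± 1.10 SE, edgeR adjusted p = 0.258, n = 4 and 4), and Jph1 (0.78 ± 0.53, edgeR adjusted p = 0.298) had the smallest adjusted p. Without Col5a1CKO vehicle wound 1 the median was 2.67 and Mybpc2, Myh4 and Ryr1 were called higher, against 6.03% of all genes. Against WT vehicle wounds, 0 of 40 members were called, where 8.58% of all 15514 genes were called, with 1 at an unadjusted p under 0.05 and 1 by DESeq2, in both cases Tnnc1, which was higher (9.49% of all genes in that direction, and 8.13% by DESeq2). The median was -1.67, with 5 of 40 positive against 49.0% of all genes. Tnnc1 had 0.444, 1.19, 2.49 and 0.477 CPM with cilengitide (1.76 ± 0.69 SE, edgeR adjusted p = 0.0959), and Myh1, the IIx myosin, 62.9, 4.03, 24.1 and 33.9 with cilengitide and 291, 5.06, 409 and 102 in WT (-2.67 ± 1.19, edgeR adjusted p = 0.133). Without WT vehicle wound 2, Acta1, Actn2 and Myh1 were called lower, against 3.84% of all genes.

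**Figure D4:**
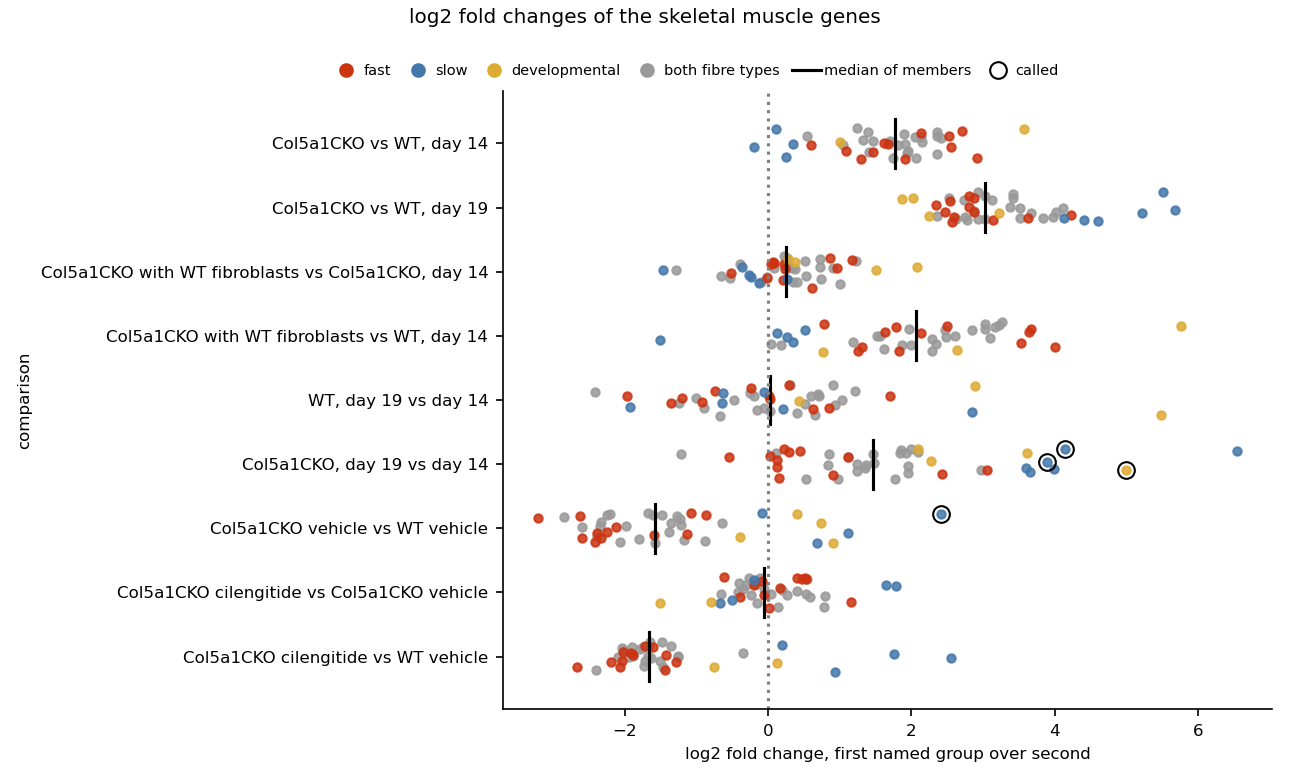
The log2 fold changes of the members tested (40 to 44 a comparison) in 9 comparisons, first named group over second. Points are genes coloured by fibre type, bars are medians, black rings mark called genes, and comparisons that share wounds are not independent. Medians run from -1.67 (cilengitide over WT vehicle) to 3.03 (Col5a1CKO over WT at day 19), and 4 points are ringed.

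Which myosins made up the muscle RNA was read from the counts of the 6 heavy chain genes, whose transcripts are of nearly one length (5992 to 6148 bp). Only the 24 wounds with at least 1000 such counts were used, a minimum set after the values were seen. The 5 fast and developmental genes among them lie side by side on chromosome 11 and are near copies, so that 50 bp reads could be split between them with error, and intervals cover counting error only. Myh4, the IIb myosin, made up 67.0% to 87.5% of myosin counts in the 5 Col5a1CKO wounds at day 14 and 54.7% and 57.8% in the 2 WT wounds. In the day 14 wounds with WT fibroblasts (a, b and c) it made up 85.8%, 3.93% and 29.7%. In the cilengitide experiment, also at day 14, it made up 35.4%, 43.8% and 60.0% in WT vehicle wounds. There it made up 72.2% and 2.0% in Col5a1CKO vehicle wounds and 58.7%, 81.3% and 11.2% with cilengitide. At day 19 the share of Myh4 was 24.8% to 34.1% (WT) and 22.6% to 41.6% (Col5a1CKO). Myh1 was the largest share in 5 of those 6 wounds (38.3% to 56.8%, with 28.4% in Col5a1CKO wound c). It also exceeded Myh4 in some day 14 wounds, such as WT vehicle wound 1 (61.3%) and cilengitide wound 4 (80.1%).

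Myh7 made up 20% in WT day 19 wound c and 5.61%, 16.6% and 14.0% in the Col5a1CKO wounds of that day, but 0.0134% and 0.673% in WT wounds a and b and at most 2.93% in the day 14 wounds of the first experiment that were used. The slow share of troponin I, from length-scaled levels of Tnni1 and Tnni2, was 11.4% to 15% in the 3 Col5a1CKO and 2 of the 3 WT wounds at day 19 and 1.81% in WT wound a. In the 7 day 14 wounds used from the WT and Col5a1CKO groups of the first experiment it was 0.277% to 3.96%, and with WT fibroblasts 0.45%, 20.7% and 9.64%. In the day 14 wounds used from the cilengitide experiment it was 0.121%, 0.292% and 2.48% in WT and 3.34% and 35.6% in Col5a1CKO wounds with vehicle, and 1.78%, 4.06% and 7.11% with cilengitide. The 35.6%, in Col5a1CKO vehicle wound 2, lay above every day 19 wound.

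Embryonic and neonatal myosin (Myh3 and Myh8 together) took a large share of the myosin counts in some of the wounds with little muscle RNA. They made up 46.4% of 3512 myosin counts in Col5a1CKO wound b with WT fibroblasts (Wilson 95% interval 44.8 to 48.1%), 41.2% of 1347 in Col5a1CKO vehicle wound 2 (38.6 to 43.9%), 20.8% of 3416 in WT day 19 wound b (19.5 to 22.2%), 11.8% of 3253 in wound c with WT fibroblasts (10.7 to 12.9%) and 10.8% of 5655 in Col5a1CKO day 19 wound a (9.99 to 11.6%). In the richest wounds the share was 0.304% (wound a with WT fibroblasts, 0.281 to 0.328%) and 1.27% (Col5a1CKO day 19 wound c, 1.23 to 1.31%). All 6 day 19 wounds lay at 1.27% to 20.8%, and the 7 day 14 wounds used from the WT and Col5a1CKO groups of the same experiment at 0.0704% to 1.33%. In the other wounds used of the cilengitide experiment it was 0.529% to 1.38% in WT wounds, 2.33% in Col5a1CKO vehicle wound 1 and 0.944%, 0.232% and 3.61% with cilengitide. Below the minimum, cilengitide wound 2 had 47.5% of 687 counts (43.7 to 51.2%), Col5a1CKO day 14 wound d had 22.8% of 395 counts (18.9 to 27.2%), and WT day 14 wounds b to e had none among 54, 61, 72 and 81 counts, with upper Wilson limits of 6.64%, 5.92%, 5.07% and 4.53%. WT day 14 wound f had 6.67% of 75 counts (2.88 to 14.7%) and WT vehicle wound 2 had 2.05% of 390 (1.04 to 3.99%). Col5a1CKO day 14 wound c had none among 245 (upper limit 1.54%). Col5a1CKO vehicle wounds 3 and 4 had 14.3% of 21 (4.98 to 34.6%) and 45.5% of 33 (29.8 to 62.0%).

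**Figure D5:**
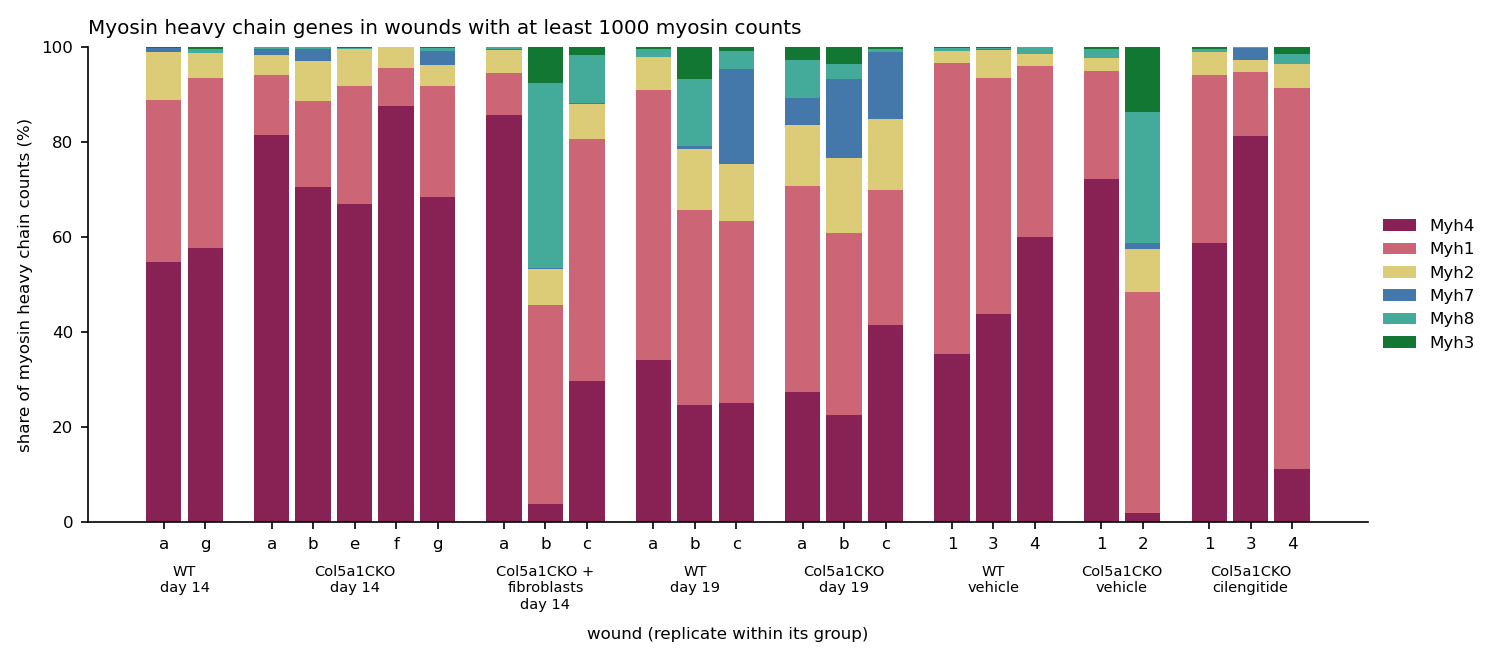
Share of each of 6 heavy chain genes in the myosin counts (%) of the 24 wounds with at least 1000 such counts. Bars are wounds, named by replicate and grouped by group. Myh4 is the main colour in Col5a1CKO wounds at day 14 (67.0% to 87.5%), Myh1 in most day 19 wounds, Myh7 is visible in 4 day 19 wounds, and Myh8 with Myh3 make up 46.4% and 41.2% in 2 wounds.

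Other genes of the pathway were read from lists chosen by name. Of 18 further sarcomere and Z disc genes, 0 were called between genotypes at day 14 and at day 19, against 8.28% and 0.0198% of all genes. Their medians were 1.15 and 2.63. Tpm3 was higher with WT fibroblasts than in WT wounds (159 ± 4.01 and 76.5 ± 28.3 CPM, SD, n = 3 and 7; edgeR adjusted p = 0.0389). In Col5a1CKO wounds 1 was higher at day 19 than at day 14, against 1.87% of all genes. It was Flnc, a filamin of muscle and of other cells (2.09 ± 0.39 SE, edgeR adjusted p = 0.017). Myom3, an M-band gene, was lower in Col5a1CKO than in WT vehicle wounds (-4.62 ± 0.63, edgeR adjusted p = 0.00143), with means of 0.372 ± 0.212 and 9.14 ± 3.37 CPM (SD, n = 4), higher with cilengitide than with vehicle (3.10 ± 0.57, edgeR adjusted p = 0.0105) and lower with cilengitide than in WT (-1.49 ± 0.35, edgeR adjusted p = 0.0279). Tpm1, the tropomyosin with the highest mean of this list, is also made by other cells and stayed at 139 CPM or more in every wound.

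Of 20 further excitation and calcium genes, up to 19 were tested and 0 or 1 was called in each comparison. Of all genes, 0.0% to 30.9% were called in either direction, depending on the comparison. Chrnd, the delta subunit of the acetylcholine receptor, was higher at day 19 than at day 14 in Col5a1CKO wounds (2.16 ± 1.25 and 0.108 ± 0.117 CPM, SD, n = 3 and 7; edgeR adjusted p = 0.0362). Musk, the receptor kinase of the neuromuscular junction, was higher in Col5a1CKO than in WT vehicle wounds (1.92 ± 0.462 and 0.325 ± 0.254 CPM, SD, n = 4; edgeR adjusted p = 0.0196) and lower with cilengitide than with vehicle (-1.62 ± 0.40, edgeR adjusted p = 0.0256). Casq2, the calcium store protein of slow and cardiac muscle, was higher with cilengitide than in WT vehicle wounds (8.68 ± 3.49 and 3.59 ± 1.16 CPM, SD, n = 4; edgeR adjusted p = 0.0339). Jph2 had the highest mean of this list, with 1.09 to 232 CPM over all wounds. The 14 further muscle energy genes gave 1 call in 2 comparisons, Gys1 in both, the glycogen synthase of muscle and other tissues, and none in the other 7. Gys1 was higher with WT fibroblasts over WT (3.77% of all genes called higher) and in Col5a1CKO over WT vehicle wounds (17.5%). The highest member of this list, Pfkm, ranged from 11.7 to 747 CPM.

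Among 12 satellite cell and regeneration genes, Pax7, the defining gene of satellite cells, was at most 2.03 CPM in any wound, with a median of 0.0. In all comparisons 2 calls were made in this list. Tmem8c, the fusion gene myomaker, was at 0 counts in all 7 WT wounds at day 14 and at 0.768 ± 0.226 CPM at day 19 (SD, n = 3, edgeR adjusted p = 0.0467). Of all genes, 1.5% were called higher there. Pax3 was lower in Col5a1CKO than in WT vehicle wounds (0.0483 ± 0.0967 and 0.772 ± 0.499 CPM, SD, n = 4, edgeR adjusted p = 0.0477), against 13.4% of all genes called lower. The highest member of this list, Cdkn1c, ranged from 3.73 to 161 CPM and is also made by other cells. Of 7 denervation and atrophy genes, Runx1, a transcription factor that denervated muscle and also leukocytes and epidermis express, was at day 14 higher in the Col5a1CKO than in the WT group (125 ± 38.2 and 56.0 ± 11.4 CPM, SD, n = 7; edgeR adjusted p = 0.00663) and with vehicle (138 ± 31.1 and 52.0 ± 13.1 CPM, SD, n = 4; edgeR adjusted p = 0.00269). It was also higher with WT fibroblasts than in WT wounds (edgeR adjusted p = 0.0121). Gadd45a was higher in 2 of the comparisons (with WT fibroblasts over WT, edgeR adjusted p = 0.0193, and Col5a1CKO over WT vehicle, edgeR adjusted p = 0.0254), and at day 14 Mt1, a metallothionein, was at 50.1 ± 12.2 CPM in Col5a1CKO and 103 ± 42.8 in WT wounds (SD, n = 7; edgeR adjusted p = 0.03). Genes of the lists named for a call were chosen after their values were seen.

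Markers of other tissues moved with some of these comparisons. The 5 markers of muscle fibres (Acta1, Ckm, Mylpf, Tnnt3 and Myh4), which are all members, summed to 9.24 to 26263 CPM, whereas the cardiac markers Myh6, Nppa, Myl7 and Tnni3 summed to 0.0 to 13.0 CPM over all wounds and Nppa did not exceed 0.114. Myl7 was higher with cilengitide than in WT vehicle wounds (2.8 ± 1.49 and 0.697 ± 0.275 CPM, SD, n = 4; edgeR adjusted p = 0.0271). In Col5a1CKO wounds at day 14, 3 of 4 smooth muscle markers, 3 of 3 leukocyte and 3 of 3 endothelial markers and 1 of 4 fibroblast markers were called higher than in WT, against 5.57% of all genes. The leukocyte sum ran from 93.6 to 283 CPM in the WT and from 343 to 1441 in the Col5a1CKO group, and the smooth muscle sum 90.3 to 1042 and 674 to 2195. In the vehicle comparison 3 smooth muscle, 3 leukocyte, 2 fibroblast and 1 endothelial markers were called higher, against 17.5% of all genes. There 3 of 4 keratinocyte markers were called lower, against 13.4%. The keratinocyte sum was 56.2 to 11002 CPM in Col5a1CKO and 58373 to 95772 CPM in WT wounds, and the leukocyte sum 736 to 2826 and 79.8 to 168. The part of these tissues in the levels of Tnnc1, Des, Runx1 and the other genes was not tested. Across wounds, the keratinocyte sum had a rho of -0.52 with the summed muscle level in the first and 0.62 in the second experiment, and the adipocyte sum 0.67 and 0.08. The satellite cell sum had 0.79 and 0.01, the endothelial sum 0.56 and -0.34 and the Schwann cell sum 0.52 and 0.22. For the cardiac sum it was 0.45 and -0.06, for fibroblasts 0.35 and -0.17, for smooth muscle 0.27 and -0.45 and for leukocytes 0.14 and -0.55.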

How the data were processed

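RNA from 35 wounds was sequenced as 50 bp single-end reads from stranded libraries. Per the methods, uniquely aligned reads with at most 2 mismatches were kept and counted over exons of RefSeq genes in SeqMonk on NCBI37/mm9 (HISAT2 per the submitters' processing notes). Whether this covers the cilengitide libraries, and whether counting used strand, is not given in the sources used here. The deposited values are raw counts, per transcript in the first table (23 wounds, 15043531 to 35700337 in all per wound) and per symbol in the second (12 wounds, 51211600 to 68266760). Of values from 1 to 19, 45.1% were even in the first table and 60.7% in the second. Rows naming no gene (0.0492% and 5.91e-05% of counts) were left out, and the row with the largest total stood for each symbol.

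The members and lists were chosen with earlier results of these data known. Levels are CPM scaled by TMM within each table. Both tables were normalized separately, and no test spans them. Each of 9 pairs of groups was tested over all genes kept by filterByExpr (minimum count 10) with edgeR 4.0.16 (robust quasi-likelihood, R 4.3.3), and the fits were tested on simulated data. Alternatives included DESeq2 1.42.0, other scalings, no filter, the library sets and leaving out each wound. Named were the 2 highest members per role by length-scaled level, every called member, the 2 smallest adjusted p per comparison, the 10 genes most like the summed level (1 of which is not reported here) and the leading gene of each list. Groups followed the labels, and replicate numbers of the cilengitide experiment were given in accession order. Other values used Python 3.11.15, numpy 2.4.6, pandas 2.3.3, scipy 1.17.1 and matplotlib 3.10.9.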

Additional observations from a re-analysis of the deposited data

Results flagged for a closer look

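Among 105 sets of values (21 quantities in each of the 5 groups of 4 to 7 wounds), 39 held a highest or lowest wound that stood apart from the others of its group by Dixon's criterion. Its rate of about 1 in 20 by chance holds for normally distributed values. The values used were CPM without a log scale, whose sum differed up to 341-fold within a group, so that this rate cannot be set against the 39. The members share wounds, so that the flags are not independent. In WT wounds at day 14 all 21 were flagged. In 19 of them the wound was a, with a summed level of 19033 CPM and with 2590 CPM of Mylpf, 735 of Myl1, 1639 of Acta1, 2046 of Tnnt3, 390 of Actn3, 205 of Des, 1245 of Atp2a1, 783 of Pvalb, 977 of Ckm, 364 of Eno3, 5.02 of Myog, 3.34 of Myh3, 33.5 of Tnnc1, 28.0 of Tnni1, 67.2 of Tnnt1, 23.1 of Jph1, 21.2 of Myl3 and 567 of Myh1. In the remaining ones it was wound g, with 0.0412 CPM of Myod1 (1 count) and 2.76 of Myh8.

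In Col5a1CKO wounds at day 14, wound e stood apart in 5 genes, with 5.35 CPM of Myog, 3759 of Tnnt3, 6.35 of Myh3, 54.9 of Jph1 and 1492 of Myh1. In Col5a1CKO vehicle wounds, wound 1 stood apart in 10 quantities, with a summed level of 3140 CPM, 138 CPM of Actn3, 154 of Des, 350 of Atp2a1, 45.2 of Pvalb, 167 of Ckm, 65.9 of Eno3, 213 of Acta1, 220 of Tnnt3 and 124 of Myh1. WT vehicle wound 1 had 1.25 CPM of Myog, cilengitide wound 2 had 0.382 CPM of Myog and cilengitide wound 3 had 2.55 CPM of Myl3.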

How the results depend on the processing

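The number of members called moved with the test and with single wounds. At an unadjusted p under 0.05 it was 2 (Col5a1CKO over WT, day 14), 11 (the same at day 19), 2 (WT fibroblasts over WT), 1 (WT, day 19 over 14), 8 (Col5a1CKO, day 19 over 14) and 1 (cilengitide over WT vehicle). Of all genes, 10.1%, 5.38%, 9.16%, 6.93%, 4.24% and 9.49% were higher by this rule, in the same order. DESeq2 called 1, 18, 2, 5, 7 and 1 higher in the same order, against 8.24%, 3.73%, 5.03%, 3.93%, 2.68% and 8.13% of all genes. Without its replacement of outlying counts (an alternative chosen after seeing the data), it called 1 at day 14 (8.1% of all genes) and 2 with WT fibroblasts over WT (4.83%). It then called 1 between the WT days (3.8%) and 7 between the Col5a1CKO days (2.6%). Scaling by library size alone gave 1 with WT fibroblasts over WT (4.75% of all genes called higher) and 1 between the WT days (4.74%). No filter gave 1 at day 14 (4.67% of all genes called higher), 1 with WT fibroblasts over WT (2.88%) and 1 between the WT days (1.36%). It gave 2 between the Col5a1CKO days (Myh3 and Tnni1, without Tnnt1), against 1.33% of all genes. One fit over all groups gave 2, 2, 2 and 1 for day 14, WT fibroblasts over WT, WT days and Col5a1CKO days. Of all genes it called 9.47%, 6.36%, 5.87% and 0.76% higher in the same order. Within library sets the counts were 1 and 1 at day 14 (3.68% and 8.82% of all genes called higher) and 4 with WT fibroblasts over WT (19.8%). They were 5 between the WT days (14.2%) and 0 between the Col5a1CKO days (0.0%).

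Leaving out 1 wound at a time gave 0 to 10 calls at day 14, 0 at day 19, 0 with WT fibroblasts over Col5a1CKO, 0 to 1 with WT fibroblasts over WT, 0 to 1 between the WT days, 0 to 3 between the Col5a1CKO days, 1 to 16 for vehicle, 0 to 3 for cilengitide over vehicle and 0 to 3 for cilengitide over WT. Of all genes, the fits with the most calls called 6.34% higher at day 14 and 1.33% and 3.4% with WT fibroblasts over WT. They called 1.16% higher between the WT days and 2.58% and 3.22% between the Col5a1CKO days. For vehicle they called 15.8% higher and 12.7% lower, for cilengitide over vehicle 6.03% higher and over WT 3.84% lower. A group left with 2 wounds was assumed to vary like the rest of the fit. The log2 fold change of Myl3 for cilengitide over vehicle changed sign without cilengitide wound 3 (-0.27, edgeR adjusted p = 0.824) and was at most 2.32 on leaving out any 1 wound. Of the values of named genes, 313 were the same, 24 passed and 31 no longer passed the threshold. The cause was not tested.

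Wounds that share a letter did not deviate together throughout (r from -0.606 to 0.516), and not every wound correlated best with its own letter. With the replicate block, 14 members were called higher with WT fibroblasts over WT, against 9.98% of all genes (1 over the same wounds with no block, an alternative chosen after seeing the data, against 12.9%). Between the WT days 1 was called higher, against 5.82% of all genes (1 with no block, against 9.99%). Between the Col5a1CKO days 0 were called, against 6.61% higher of all genes (3 with no block, Myh3, Myod1 and Myog, against 10.4%). In these fits only letters a, b and c were shared. The WT and Col5a1CKO day 14 wounds of these letters are all of the first library set. The fibroblast and day 19 wounds are all of the other set, so that group and library set cannot be told apart there. The block was not run for the interaction. No paired analysis was possible for the cilengitide experiment because the titles of its Col5a1CKO wounds carry no replicate numbers.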
